A study of Mus musculus with 7 samples.

Results

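The cell cycle and DNA replication genes are 47 genes chosen by function from those that copy DNA and divide the cell, and 46 of them were measured among 19938 genes. Ccnb1 was not analysed here. They comprised 5 genes of G1/S control, 16 of DNA replication and 25 of mitosis. Expression was measured on 7 Affymetrix arrays, with RNA of macrophages that were sorted by flow cytometry from the lamina propria of the colon, the connective tissue under the gut epithelium. The C57BL/6 mice were 6 weeks old. Il10ra_mKO (2 arrays) stands for CX3CR1cre:IL10Raflox/flox mice, in which Cre recombinase made from the Cx3cr1 gene deletes the IL-10 receptor chain Il10ra in cells that express Cx3cr1. WT_resident (3 arrays) stands for CX3CR1gfp/+ mice, and the cells of both groups were labelled resident macrophages. Il10_KO (1 array) stands for IL10-/- CX3CR1gfp/+ mice, which lack IL-10 in every cell, and WT_CX3CR1hi (1 array) for CX3CR1gfp/+ mice, and the cells of both were labelled CX3CR1hi. All 4 groups carry an altered Cx3cr1 allele, Cre in Il10ra_mKO and GFP in the other groups, so the effects of that allele and of the Il10ra deletion cannot be told apart. Whether the arrays of a group represent separate mice is not stated, and p-values here cover the array-to-array spread alone, part of which may be technical.

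A cell that enters the cycle makes D-type cyclins, releases the E2F transcription factors and switches on the genes that load the MCM helicase, make nucleotides and copy DNA. Later a second wave of genes, driven through FoxM1 and B-Myb, builds the spindle, sorts the chromosomes and splits the cell. Most macrophages of the adult colon descend from blood monocytes and divide little, whereas the crypts of the neighbouring epithelium hold some of the most rapidly dividing cells of the body. The comparisons ask whether loss of the IL-10 receptor on macrophages, or of IL-10 itself, goes with a change in these genes.

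Values are deposited log2 levels, and 39 of the 46 members lay above 5.86, the median of all values, in every array, while Cdc6 and Gmnn lay below it in every array. The targeted gene Il10ra stood at 8.05 and 7.04 in the Il10ra_mKO arrays and at 10.56, 10.76 and 11.12 in WT_resident. Il10 stood at 10.75 in Il10_KO and 11.04 in WT_CX3CR1hi, but the labels do not place its probes inside or outside the deletion, so these levels check no label. The macrophage receptor Csf1r lay between 12.18 and 12.48 in all 7 arrays, but other macrophage markers were less even. Of 12, 3 had both Il10ra_mKO arrays above the WT_resident range (8.92% of all genes) and 4 below it (8.5% of all genes). Fcgr1 was among the higher (log2 difference 0.61) and Mrc1 among the lower (-0.78). Epithelial transcripts were bright too, with Epcam at 9.15 to 11.65. In 41.3% of the members at least 2 of the 5 resident arrays held exactly the same value, and in 6 members all 3 WT_resident arrays did. No member shared a value between a resident and a CX3CR1hi array. A WT_resident spread of 0 in such a gene is a property of the deposited values and no measure of variation between mice. By upper quartile of all values, Il10_KO (8.30) and WT_CX3CR1hi (8.26) stood above the resident arrays, which ranged between 7.93 and 8.01. By lower quartile Il10_KO (4.67) and WT_CX3CR1hi (4.64) stood below the resident arrays, at 4.97 to 5.06, so their values were more widely spread. The extraction protocol names one RNA kit for samples 1 and 2 and another for samples 3 to 7, so in deposition order kit and sort label cannot be told apart. Levels are therefore compared only within a sort label.

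No cell cycle or replication gene passed the test between Il10ra_mKO and WT_resident macrophages. By limma, adjusted over all genes by Benjamini-Hochberg, 0 of the 46 members passed (0.00502% of all genes did), and 0 had an unadjusted p under 0.05 (7.92% of all genes did, 810 higher and 770 lower, or 1484 and 803 with median centring of the arrays). The lowest adjusted p among them was 0.678. The median log2 difference was -0.19 over the replication members, -0.05 over the mitosis members and -0.05 over the G1/S control members, against 0.00 over all genes, and with median centring it was 0.00 over the mitosis and the G1/S control members. Most replication members lay slightly under the WT_resident mean in both Il10ra_mKO arrays (13 of 16 in array 1 and 12 of 16 in array 2, against 46.9% and 47.0% of all genes), whereas most mitosis members lay over it in array 1 and under it in array 2. The mean level of the replication members was 7.31 and 7.32 in Il10ra_mKO and 7.27, 7.59 and 7.51 in WT_resident. The mean level of the mitosis members was 7.34 and 6.95 in Il10ra_mKO, which lay on both sides of WT_resident at 7.16, 7.27 and 7.25. For the G1/S control members it was 7.63 and 7.46 in Il10ra_mKO and 7.54, 7.70 and 7.56 in WT_resident.

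**Figure D1:**
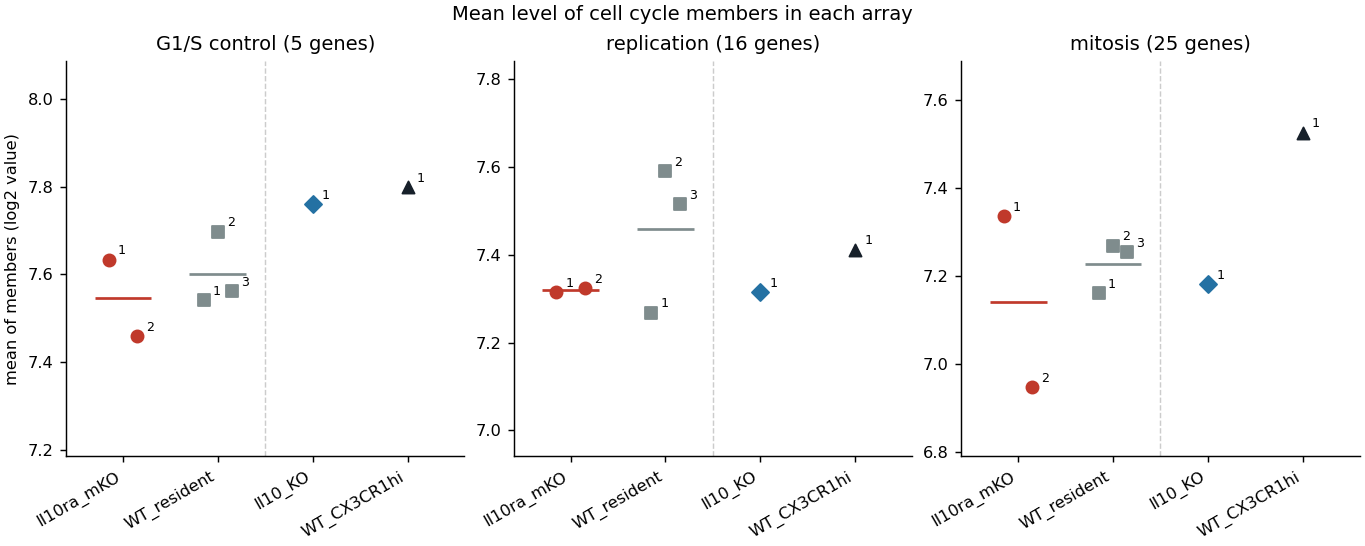
Mean deposited log2 level of the G1/S control, replication and mitosis members in each array, by group, with array numbers beside the points and a line at the mean of groups with more than 1 array. The 2 Il10ra_mKO arrays sit together at 7.31 and 7.32 for replication and apart at 7.34 and 6.95 for mitosis, and the Il10_KO array sits at 7.18 for mitosis beside 7.53 in WT_CX3CR1hi.

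G1/S control genes decide whether a cell starts to copy its DNA. Ccnd1, the D-type cyclin that answers growth signals, stood at 10.09 and 9.54 in Il10ra_mKO and at 9.91, 10.16 and 9.83 in WT_resident. The lowest of these values was that of Il10ra_mKO array 2, and array 1 lay inside the WT_resident range (log2 difference -0.16 ± 0.22, SE, 95% interval -0.77 to 0.46). Ccne1, a cyclin that drives entry into S phase, was at 6.83 and 6.78 in Il10ra_mKO and at 6.64, 6.78 and 6.70 in WT_resident. Both mutant arrays were above the WT_resident range by a narrow margin (0.10 ± 0.05, adjusted p = 0.678, limma). Its partner gene Ccne2 was at 6.26 and 6.01 in Il10ra_mKO and at 6.26, 6.39 and 6.26 in WT_resident (-0.17 ± 0.10), and array 1 equalled 2 of the WT_resident arrays. The transcription factor gene E2f1 (-0.05 ± 0.08) and the kinase gene Cdk2 (0.00 ± 0.05) overlapped between the groups.

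Of the replication genes, 13 of 16 had a lower mean in Il10ra_mKO (47.4% of all genes did). The MCM2-7 complex is the ring that unwinds DNA at the fork. Mcm6 was the only member with both Il10ra_mKO arrays below the WT_resident range (8.5% of all genes were), at 6.73 and 6.97 against 6.99, 7.54 and 7.37. Array 2 lay just under the lowest WT_resident array, and the difference of -0.45 ± 0.20 (SE, 95% interval -1.02 to 0.12) did not pass (adjusted p = 0.678, limma). Mcm2 was at 7.45 and 7.54 in Il10ra_mKO and at 7.53, 7.90 and 7.95 in WT_resident (-0.30 ± 0.16, adjusted p = 0.678, limma). Mcm5 was at 8.07 and 8.07 in Il10ra_mKO and at 8.05, 8.45 and 8.35 in WT_resident, again level with the first WT_resident array. Mcm7 was at 7.90 and 8.28 in Il10ra_mKO and at 7.89, 8.63 and 8.43 in WT_resident (-0.23 ± 0.28). Mcm3 (6.98 and 7.09 in Il10ra_mKO, 6.89, 7.11 and 7.23 in WT_resident) and Mcm4 (7.793 and 7.997 in Il10ra_mKO, 7.53, 7.95 and 8.10 in WT_resident) differed by -0.04 ± 0.12 and 0.04 ± 0.21. In every one of the 6 genes WT_resident array 1 was the lowest WT_resident array (29.0% of all genes). The median difference of the replication members was -0.25 without that array, -0.09 and -0.13 without WT_resident array 2 or 3, and -0.06 and -0.09 without Il10ra_mKO array 1 or 2, so its size rests on single arrays. Without WT_resident array 1, 9 members in all lay below the range. A range of fewer arrays is narrower, and the share of all genes below it was not counted. Mcm2, Mcm5, Mcm6 and Rrm1, a ribonucleotide reductase subunit, then had an unadjusted p under 0.05 (6.46% of all genes did), with adjusted p of 0.4996 or more by limma.

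The promoters of Mcm6 and Mcm2 are shown because these had the smallest p among the replication members. Each window is 250 bases before to 50 after the start site on the gene's strand, from RefSeq, build GRCm38.p6, at chr1:128359656-128359955 (minus strand) and chr6:88898731-88899030 (minus strand). Capitals mark matches, on either strand, to the CCAAT box (CCAAT), the cell cycle homology region or CHR (TTTGAA or TTTAAA) and the E2F site (TTTCCCGC, TTTCGCGC, TTTGCCGC or TTTGGCGC).
Mcm6: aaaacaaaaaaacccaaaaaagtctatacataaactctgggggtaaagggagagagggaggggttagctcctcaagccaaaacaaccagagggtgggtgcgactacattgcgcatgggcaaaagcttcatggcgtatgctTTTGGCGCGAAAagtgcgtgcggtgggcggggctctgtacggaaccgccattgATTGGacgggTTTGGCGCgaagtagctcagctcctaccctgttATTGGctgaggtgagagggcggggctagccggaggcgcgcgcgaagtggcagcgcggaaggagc
Mcm2: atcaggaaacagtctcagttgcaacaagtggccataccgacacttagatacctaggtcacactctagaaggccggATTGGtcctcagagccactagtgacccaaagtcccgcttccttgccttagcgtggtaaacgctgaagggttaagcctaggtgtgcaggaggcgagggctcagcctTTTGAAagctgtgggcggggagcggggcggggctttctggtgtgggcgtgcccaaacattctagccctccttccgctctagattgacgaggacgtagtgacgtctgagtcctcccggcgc
Mcm6 held 3 E2F matches, from -110, -106 and -47 of the start site, of which the first pair overlap, and 2 CCAAT boxes. Mcm2 held 1 CCAAT box from -175 and 1 CHR match from -70, and no E2F match in this window. The windows of 14 replication members and 20 mitosis members were in the table, and the first window was used where a gene had several. E2F letters stood in 6 of 14 replication promoters (42.9%) and in 1 of 20 mitosis promoters (5.0%), against 2.32% of 27025 promoters. CHR letters stood in 5 of 14 replication promoters (35.7%) and in 18 of 20 mitosis promoters (90.0%), against 27.8% of all. The CCAAT box stood in 10 of 14 replication promoters (71.4%) and 17 of 20 mitosis promoters (85.0%), against 37.9% of all. These matches describe letters in a window, not sites in use.

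Among the other replication genes, Rrm2, the regulated subunit of ribonucleotide reductase, was the furthest above WT_resident. It stood at 7.47 and 7.17 in Il10ra_mKO and at 6.61, 7.18 and 7.17 in WT_resident (0.33 ± 0.24, adjusted p = 0.679, limma), and array 2 lay inside the WT_resident range. Rrm1, its partner, went the other way, at 8.48 and 8.57 in Il10ra_mKO and at 8.434, 8.997 and 9.100 in WT_resident (-0.32 ± 0.24). Pcna, the sliding clamp of the DNA polymerases, was at 11.20 and 11.51 in Il10ra_mKO and at 11.15, 11.35 and 11.36 in WT_resident, a difference of 0.06 ± 0.13 (95% interval -0.31 to 0.44). The thymidylate genes Tyms (-0.26 ± 0.19) and Tk1 (-0.27 ± 0.21) and Uhrf1, which is needed for copying DNA methylation marks (-0.28 ± 0.21), overlapped between the groups. The licensing factors Cdt1 (-0.16 ± 0.15), Cdc6 (-0.05 ± 0.06) and Gmnn, the inhibitor of Cdt1 (-0.03 ± 0.03), did so too, as did Cdc45, which activates the helicase (-0.05 ± 0.06).

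**Figure D2:**
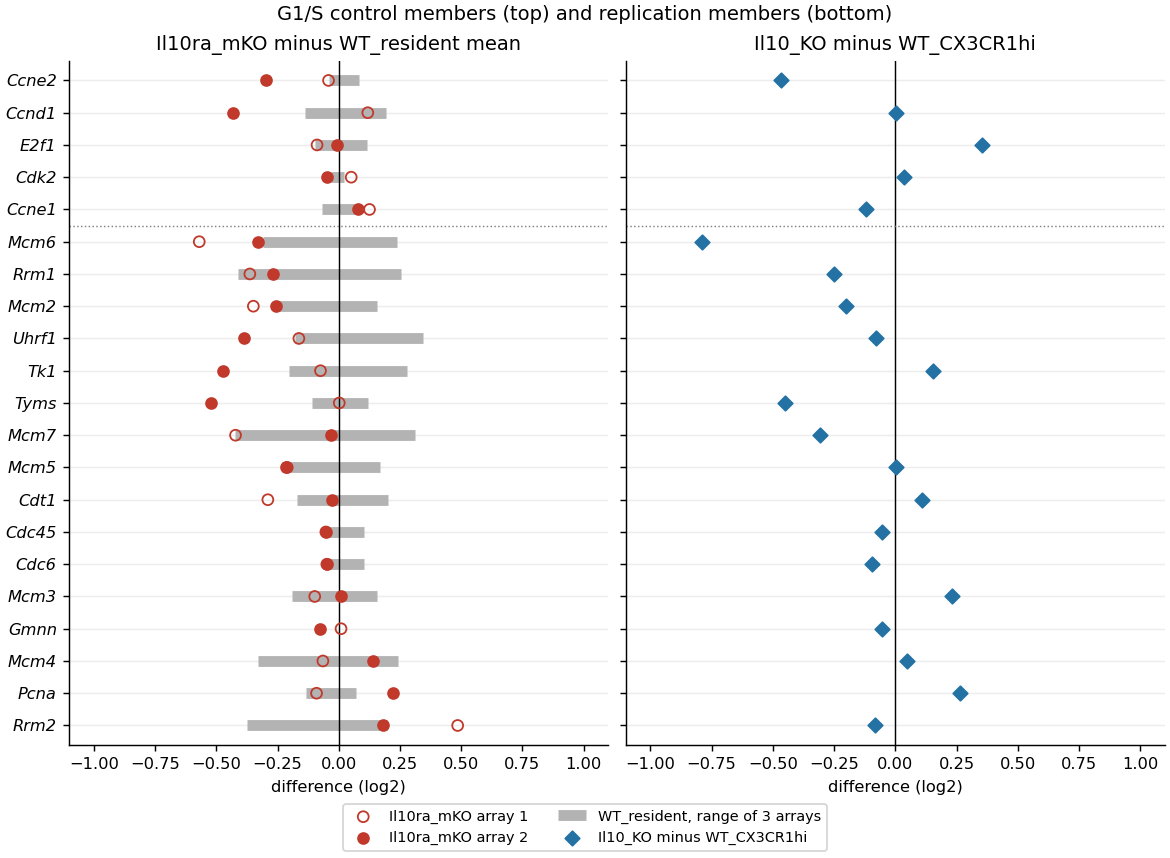
Log2 differences of the G1/S control and replication members. Left, each Il10ra_mKO array minus the WT_resident mean, with the range of the 3 WT_resident arrays as a grey bar (none visible where they are equal); right, the Il10_KO array minus the WT_CX3CR1hi array. Of the replication members only Mcm6 has both Il10ra_mKO arrays below the bar.

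Mitosis genes parted the 2 Il10ra_mKO arrays. All 25 measured members were higher in array 1 than in array 2 (40.3% of all genes were). In array 2, 20 of the 25 lay below the WT_resident range (23.7% of all genes) and 1 above it (25.6% of all genes). In array 1, 13 lay above the range (21.4% of all genes) and 0 below it (20.7% of all genes). Set against the WT_resident mean, the median difference was 0.11 for array 1 and -0.26 for array 2. Within runs of neighbouring sample numbers in the labels it was 0.11 (54 to 56, array 1) and -0.29 (67 to 68, array 2), so array, run and any difference between mice cannot be told apart. Ccnb2, a B-type cyclin of mitotic entry, stood at 9.79 and 9.06 in Il10ra_mKO and at 9.69, 9.70 and 9.72 in WT_resident. Array 1 was thus just above and array 2 clearly below 3 nearly equal arrays (-0.28 ± 0.24). Top2a, which untangles sister chromosomes, was at 8.28 and 7.89 in Il10ra_mKO and at 7.90, 8.24 and 8.34 in WT_resident, a spread that the WT_resident arrays share (-0.07 ± 0.20, 95% interval -0.64 to 0.50). Mki67, which coats mitotic chromosomes and marks cycling cells, was at 9.55 and 9.44 in Il10ra_mKO and at 9.503, 9.443 and 9.404 in WT_resident. Its difference of 0.04 ± 0.06 (95% interval -0.13 to 0.22) left the groups overlapping.

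The member furthest below WT_resident on average was Ect2, which opens the cleavage furrow by activating RhoA. It stood at 7.63 and 7.11 in Il10ra_mKO and at 7.63, 8.11 and 8.11 in WT_resident (-0.58 ± 0.25, 95% interval -1.30 to 0.13, adjusted p = 0.678, limma), with array 1 level with the lowest WT_resident array. Nusap1, a spindle protein, was at 7.50 and 7.14 in Il10ra_mKO and at 7.47, 7.59 and 7.63 in WT_resident (-0.25 ± 0.13). Bub1b, which encodes the checkpoint protein BubR1, was the only mitosis member with both Il10ra_mKO arrays above the range (8.92% of all genes were), at 7.37 and 7.00 against 6.89, 6.93 and 6.93 in WT_resident (0.27 ± 0.13, 95% interval -0.09 to 0.63, adjusted p = 0.678, limma). Cdca8, a subunit of the chromosomal passenger complex, was at 6.58 and 6.36 in Il10ra_mKO and at 6.36, 6.32 and 6.35 in WT_resident (0.12 ± 0.08). The kinetochore motor gene Cenpe was at 6.12 and 5.92 in Il10ra_mKO and at 5.92 in all 3 WT_resident arrays (0.10 ± 0.07). Array 2 equalled or nearly equalled WT_resident in these last genes.

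Ect2 and Bub1b had the smallest p of all mitosis members in the lower and in the higher direction, and their promoters are shown with the same marks. The windows lie at chr3:27153829-27154128 (minus strand) and chr2:118597961-118598260 (plus strand) of GRCm38.p6.
Ect2: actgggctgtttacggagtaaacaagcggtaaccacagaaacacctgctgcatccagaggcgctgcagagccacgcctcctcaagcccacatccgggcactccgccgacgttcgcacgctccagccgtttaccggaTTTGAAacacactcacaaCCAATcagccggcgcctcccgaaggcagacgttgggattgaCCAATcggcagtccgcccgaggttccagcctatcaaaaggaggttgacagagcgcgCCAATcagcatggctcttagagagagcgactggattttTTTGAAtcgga
Bub1b: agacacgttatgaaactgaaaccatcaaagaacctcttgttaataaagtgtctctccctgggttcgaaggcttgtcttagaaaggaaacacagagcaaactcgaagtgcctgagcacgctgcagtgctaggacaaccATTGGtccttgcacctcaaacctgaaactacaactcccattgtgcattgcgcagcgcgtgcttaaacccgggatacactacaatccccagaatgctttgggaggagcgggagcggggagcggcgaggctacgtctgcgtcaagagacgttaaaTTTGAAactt
Ect2 held 3 CCAAT boxes, from -96, -55 and 2 of the start site, and 2 CHR matches, from -114 and 40. Bub1b held 1 CCAAT box from -113 and 1 CHR match from 41. Neither held an E2F match in this window, and matches of different motifs did not overlap.

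With a single mutant array in the fit and the spread taken from the WT_resident arrays, limma called 4 members without array 1 (1.33% of all genes) and 2 without array 2 (1.34% of all genes), all mitosis genes and in opposite directions. Without array 1, Cdca3, a trigger of mitotic entry, was at -0.50, Ccnb2 at -0.64, the ubiquitin-conjugating enzyme gene Ube2c at -0.41 and Cenpf, a kinetochore gene, at -0.32 (adjusted p = 0.0358, 0.0460, 0.0483 and 0.0471). Without array 2, Cdca3 was at 0.31 and the spindle kinase gene Aurka at 0.41 (adjusted p = 0.0476 and 0.0440). Cdca3 stood at 6.94 and 6.13 in Il10ra_mKO and at 6.63 in all 3 WT_resident arrays, with array 1 above and array 2 below. Aurka stood at 7.19 and 6.70 in Il10ra_mKO and at 6.78 in all 3 WT_resident arrays, and Ube2c at 8.29 and 7.72 in Il10ra_mKO and at 8.13 in all 3 WT_resident arrays, in the same order. Cdca3, Ube2c and Aurka are among the members whose 3 WT_resident values are equal, so their WT_resident spread in the deposited values is 0. That spread was also very small in Cenpf and Ccnb2 (standard deviations of 0.012 and 0.015). In Cenpf WT_resident arrays 1 and 3 were equal, at 5.79. The remaining mitosis members, Aurkb, Birc5, Bub1, Ccna2, Cdc20, Cdk1, Foxm1, Kif11, Kif20a, Kif2c, Plk1, Prc1 and Tpx2, did not have both Il10ra_mKO arrays on one side of WT_resident, with mean differences from -0.29 for the spindle motor Kif11 to 0.01 for Cdc20, an activator of the anaphase-promoting complex.

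**Figure D3:**
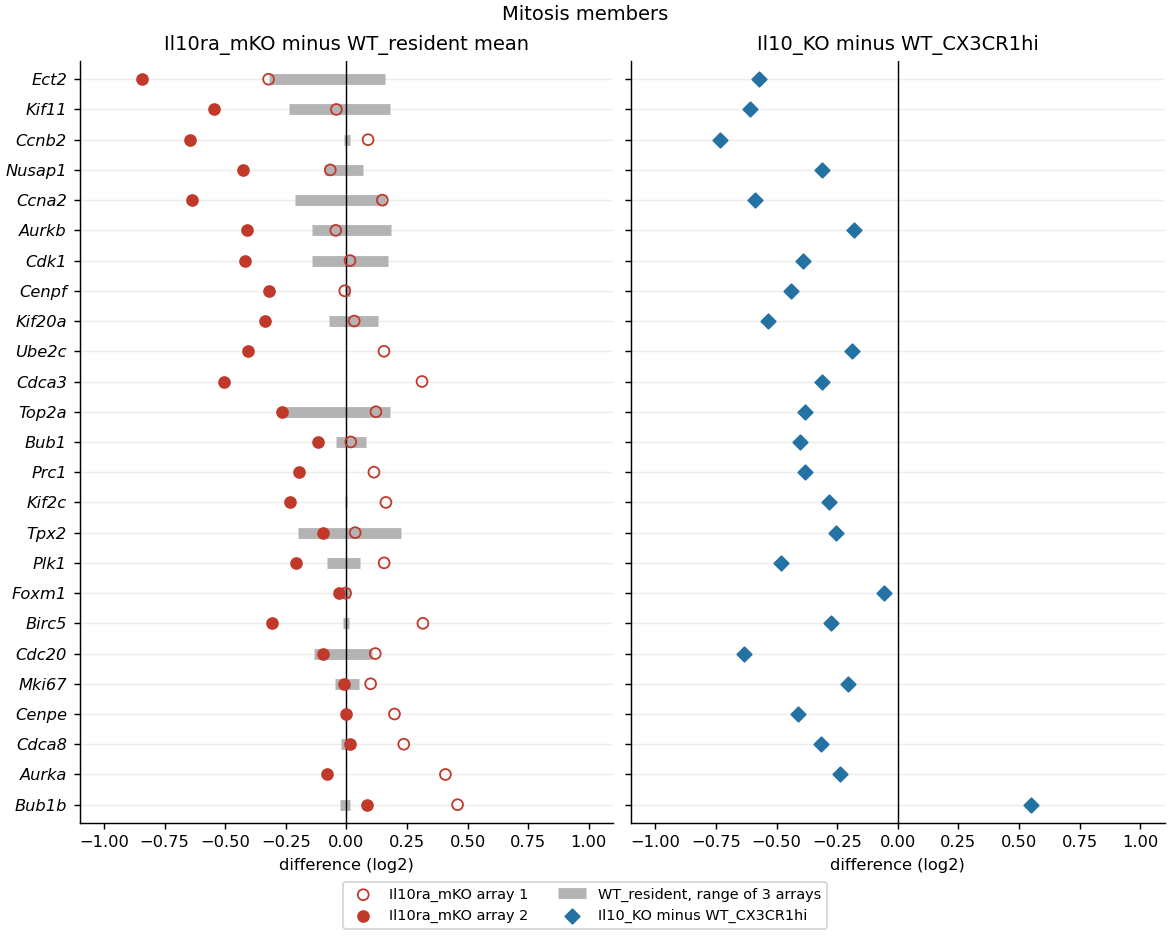
Log2 differences of the mitosis members, drawn as for the replication members. Array 1 of Il10ra_mKO (open circles) lies to the right of array 2 (filled circles) in all 25 genes, and 24 of the 25 Il10_KO differences lie below 0.

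Markers of several other cell types differed between the arrays, and epithelial markers, among others, had the same order as the mitosis genes in the Il10ra_mKO arrays. The mean level of 12 epithelial markers was 10.76 and 8.91 in Il10ra_mKO and 10.56, 10.95 and 10.61 in WT_resident, and all 12 were higher in array 1 than in array 2. The brightest, the keratin gene Krt8, was at 12.88 and 11.50 in Il10ra_mKO and at 12.94, 13.08 and 12.77 in WT_resident. Markers of crypt progenitors, the dividing cells of the epithelium, had a mean of 5.67 and 5.23 in Il10ra_mKO and 5.85, 6.17 and 5.82 in WT_resident (6 of 7 listed markers measured). All 6 were lower on average in Il10ra_mKO, though Olfm4, near the floor, differed by only -0.0065. Of these genes only Sox9 lay above the median of all values in every array. The brightest of them, Sox9, was at 7.41 and 6.39 in Il10ra_mKO and at 7.92, 8.35 and 7.85 in WT_resident. Of 8 fibroblast and muscle markers 7 had a lower mean in Il10ra_mKO, and Des did not, with list means of 6.79 and 6.74 in Il10ra_mKO against 7.62, 7.87 and 7.31 in WT_resident. B and plasma cell markers (7 of 8 measured) were split, with 5 higher and 2 lower on average in Il10ra_mKO. Their list mean ran opposite to the mitosis genes, at 7.90 and 8.54 in Il10ra_mKO and 7.72, 7.53 and 7.62 in WT_resident. Jchain, the brightest, was at 11.36 and 11.46 in Il10ra_mKO, below WT_resident at 11.55, 11.59 and 11.60. Xbp1 was at 10.41 in both Il10ra_mKO arrays. Neutrophil markers had means of 6.56 and 6.15 in Il10ra_mKO and 5.82, 5.82 and 5.90 in WT_resident. Most of them were near the floor, and S100a8 and S100a9 passed the median of all values only in Il10ra_mKO array 1, at 5.92 and 5.97. Ly6g and Csf3r were bright in every array. Ly6g was at 9.70 and 8.10 in Il10ra_mKO and at 6.95, 7.75 and 8.17 in WT_resident. Csf3r, the brightest of the list, was at 9.60 and 10.01 in Il10ra_mKO, above WT_resident at 8.98, 8.33 and 8.92. Dendritic cell markers had means of 6.91 and 7.13 in Il10ra_mKO and 6.32, 5.997 and 6.16 in WT_resident. Within that list the lectin receptor gene Clec9a, picked after its values were seen, was at 8.58 and 9.32 in Il10ra_mKO and at 6.34, 5.65 and 6.15 in WT_resident (2.91 ± 0.34, adjusted p = 0.244, limma), while Dpp4, the brightest of the list, was at 8.24 and 8.39 in Il10ra_mKO and at 8.53, 8.63 and 8.75 in WT_resident. Monocyte means (8.47 and 8.21 in Il10ra_mKO, 8.305, 8.57 and 8.62 in WT_resident) had the array order of the mitosis genes. So did endothelium means (6.18 and 6.06 in Il10ra_mKO, 6.13, 6.29 and 6.35 in WT_resident). Macrophage means ran opposite, at 11.18 and 11.42 in Il10ra_mKO and 11.50, 11.40 and 11.36 in WT_resident. T cell and ILC means did too (6.54 and 6.64 in Il10ra_mKO, 6.26, 6.34 and 6.54 in WT_resident). The part of any of these cell types in the levels of the cell cycle genes was not tested. Fewer cells of a type and less RNA per cell cannot be told apart in bulk RNA.

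**Figure D4:**
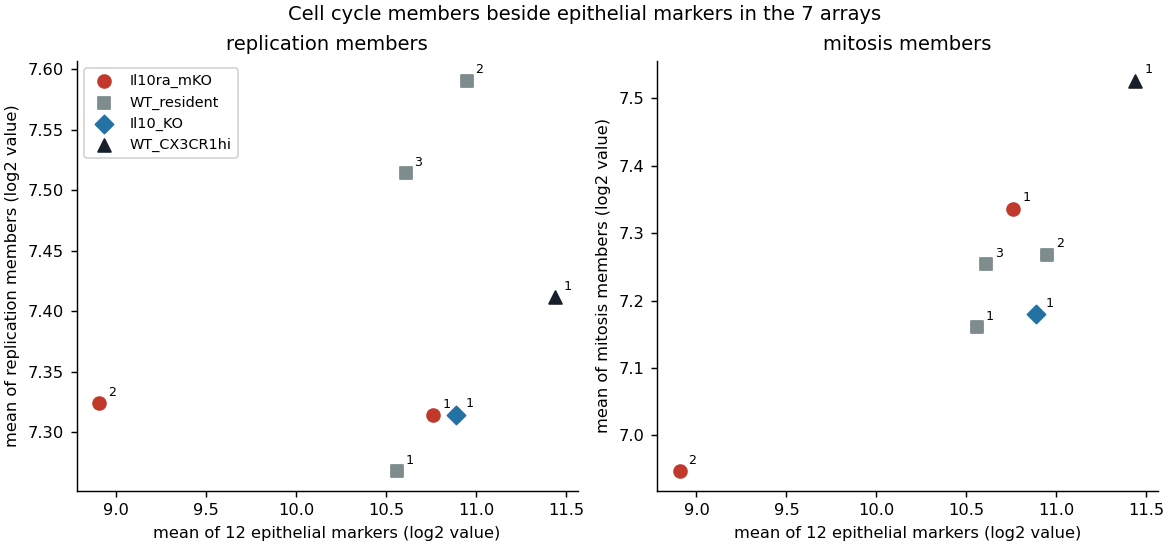
Mean log2 level of the replication members (left) and mitosis members (right) against the mean log2 level of 12 epithelial markers in the 7 arrays, with array numbers. Among the resident arrays Il10ra_mKO array 2 is the lowest for both the epithelial mean (8.91) and the mitosis mean (6.95), and Il10_KO lies under WT_CX3CR1hi on both axes of both panels.

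In the CX3CR1hi sort, where 1 Il10_KO array stands against 1 WT_CX3CR1hi array with no replicate check and no test, the mitosis genes were lower in Il10_KO. The difference was below 0 for 24 of 25 mitosis members (43.7% of all genes; 23 with the rows of a gene averaged), for 10 of 16 replication members and for 2 of 5 G1/S control members. The median log2 difference was -0.38 over the mitosis members, -0.07 over the replication members and 0.00 over the G1/S control members, against 0.03 over all genes. None of the 46 members differed by 2-fold or more (1.92% of all genes did, 1.22% lower and 0.692% higher). At a smaller size chosen after the values were seen, a log2 difference beyond 0.25, 24 members were lower (11.9% of all genes) and 3 higher (15.3% of all genes), and 19 of the 24 lower ones were mitosis genes.

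Mcm6 had the widest gap downward, at 7.36 in Il10_KO and 8.15 in WT_CX3CR1hi, a 1.73-fold difference. Ccnb2 was at 9.19 in Il10_KO and 9.92 in WT_CX3CR1hi. Cdc20 was at 5.73 in Il10_KO and 6.36 in WT_CX3CR1hi. These mitosis genes, and Kif11 at 7.50 in Il10_KO and 8.11 in WT_CX3CR1hi, were lower in the mutant by 1.53-fold to 1.66-fold. Top2a was at 8.24 in Il10_KO and 8.63 in WT_CX3CR1hi on its brighter row, a log2 difference of -0.38, but the mean of its 2 rows differed by 0.04, so its direction depends on the row. Mki67 was at 9.71 in Il10_KO and 9.91 in WT_CX3CR1hi. In the other direction, Bub1b was at 8.02 in Il10_KO and 7.47 in WT_CX3CR1hi and was the only mitosis member that was higher, or 1 of 2 with Top2a where the rows of a gene were averaged. E2f1 was at 7.68 in Il10_KO and 7.33 in WT_CX3CR1hi, Pcna at 11.74 in Il10_KO and 11.47 in WT_CX3CR1hi, and Mcm3 at 7.35 in Il10_KO and 7.12 in WT_CX3CR1hi. The other MCM genes were split, with Mcm2 at 7.56 in Il10_KO and 7.76 in WT_CX3CR1hi, and Mcm7 at 7.54 in Il10_KO and 7.85 in WT_CX3CR1hi. Mcm4 was at 8.03 in Il10_KO and 7.98 in WT_CX3CR1hi, and Mcm5 at 7.45 in both. Ccnd1 was at 10.07 in both arrays. The epithelial mean was 10.89 in Il10_KO and 11.44 in WT_CX3CR1hi, and the crypt progenitor mean was 5.80 in Il10_KO and 6.40 in WT_CX3CR1hi. All 6 crypt markers were lower in Il10_KO, with Olfm4 near the floor at 4.32 in Il10_KO and 4.42 in WT_CX3CR1hi. The fibroblast and muscle mean was 6.55 in Il10_KO and 7.27 in WT_CX3CR1hi, with all 8 lower, and Clec9a was at 8.44 in Il10_KO and 5.80 in WT_CX3CR1hi. Their part in these differences was not tested.

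Set side by side, both comparisons had Mcm6 and Ect2 lower and Bub1b higher in the mutant. These genes were named because they stood out in these same values. The comparisons share no control array, but none of the genes passed in Il10ra_mKO and the other side is 1 array against 1. Mcm6 was at -0.45 in Il10ra_mKO minus WT_resident and at -0.79 in Il10_KO minus WT_CX3CR1hi. Ect2 was at -0.58 in the first and -0.57 in the other comparison, and Bub1b at 0.27 and 0.55. Of the 46 members 34 had a lower mean in Il10ra_mKO (47.4% of all genes), 36 were lower in Il10_KO (43.7%) and 28 were lower in both (28.6%). With so many lower on each side, a large overlap arises whether or not the comparisons are related. The difference between the mutant effects was tested for every gene in the limma fit, with the single arrays assumed to vary as the others do, and 0 of the 46 members passed (4.7% of all genes did). The count over all genes, 937, was between 0 and 2200 under the alternatives. One side of this test is a single pair of arrays, whose own spread was not measured. Its lowest adjusted p among the members was 0.174, for Cenpe.

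Outside the 46 members, 141 of 144 listed genes of the same pathway were measured, and 0 of them passed by limma in Il10ra_mKO, with 7 higher and 6 lower at an unadjusted p under 0.05 (4.06% and 3.86% of all genes). Their median difference was 0.00, as over all genes. Ccnd2, a D-type cyclin, was at 9.99 and 10.18 in Il10ra_mKO and at 10.57, 10.82 and 10.70 in WT_resident (-0.61 ± 0.11, adjusted p = 0.368, limma). Wee1, the kinase that holds back Cdk1, was at 6.75 and 6.54 in Il10ra_mKO and at 7.42, 7.58 and 7.12 in WT_resident (-0.73 ± 0.17). In both genes the mutant arrays lay apart from WT_resident. Shmt1, which feeds thymidylate synthesis, was lower by a similar size (-0.66 ± 0.17), as were Cdk6, a kinase partner of the D-type cyclins (-0.55 ± 0.17), and the E2F family gene E2f5 (-0.36 ± 0.10). The spindle gene Aspm was lower by less (-0.18 ± 0.03) and near the floor, at 5.05 and 5.06 in Il10ra_mKO and 5.24, 5.19 and 5.26 in WT_resident.

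The 7 higher genes had varied roles. Btg1, an antiproliferative gene, was at 11.74 and 11.79 in Il10ra_mKO and at 11.08, 11.05 and 11.39 in WT_resident (0.59 ± 0.13, adjusted p = 0.424, limma). Ccng2, an atypical cyclin linked to arrest, was at 8.07 and 8.08 in Il10ra_mKO and at 7.75, 7.87 and 7.88 in WT_resident (0.24 ± 0.06). E2f4, an E2F of the repressive complexes of resting cells, was at 8.99 and 8.86 in Il10ra_mKO and at 8.56, 8.69 and 8.59 in WT_resident (0.31 ± 0.07), and the checkpoint gene Mad1l1 was 0.17 ± 0.03 higher. The others were E2f2, an activating E2F (0.56 ± 0.17), Cdkn1b, a CDK inhibitor (0.32 ± 0.11), and Pold3, a DNA polymerase delta subunit (0.16 ± 0.05). Both mutant arrays lay above WT_resident in each of these 7 genes, and none passed over all genes. Of the 12 measured CDK inhibitor and arrest genes 4 lay above the range in both arrays (8.92% of all genes did), 6 had a higher and 6 a lower mean, and the list's median difference was 0.00.

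In the same single pair of arrays the other mitotic lists were lower in Il10_KO as well (43.7% of all genes were lower). They have no replicate check either, and the lists were chosen with earlier results of these data known. The median difference was -0.29 over 26 genes of the spindle, chromosomes and cytokinesis, with 23 below 0. It was -0.25 over 18 genes of mitotic entry and exit, with 16 below 0, and -0.17 over 17 genes of the spindle checkpoint and kinetochore, with 11 below 0. Replication lists stayed near all genes, with 0.02 over 38 origin and fork genes and 0.04 over 9 genes of nucleotide supply.

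**Figure D5:**
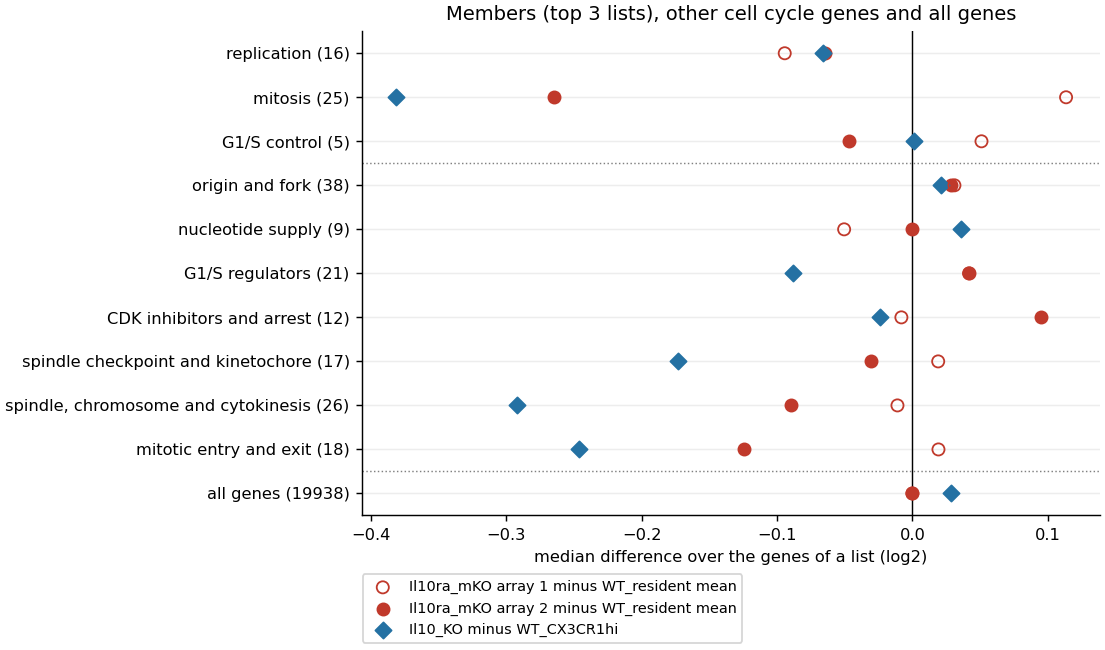
Median log2 difference over the genes of each list, with the number of genes in brackets, for each Il10ra_mKO array against the WT_resident mean (circles) and for Il10_KO against WT_CX3CR1hi (diamonds). The mitosis members and the 3 other mitotic lists reach -0.38 to -0.17 in Il10_KO, while origin and fork genes lie at 0.02 to 0.03 in all 3 mutant arrays.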

How the data were processed

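Per the labels' protocols, RNA of sorted macrophages was biotin-labelled and hybridised to Affymetrix arrays. Deposited values are log2 intensities, and the submitters' processing notes name RMA and Partek; no versions, and no word on joint normalization of the sort labels, are given in those notes. Rows with 1 gene symbol in the platform annotation (21789 of 35399) were named, 21698 of them matched the RefSeq table of GRCm38.p6 by gene ID, and the row with the highest mean stood for a gene (Pcna, Tk1 and Top2a had 2 rows).

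Differences were fitted with limma 3.58.1 in R 4.3.3 (4 group means, all 7 arrays, variance trend, 3 residual degrees of freedom), tested on simulated data first, and p-values are two-sided with Benjamini-Hochberg adjustment over 19938 genes. Il10_KO against WT_CX3CR1hi was described without a test. The number of arrays limits the precision. Alternatives were gene summary, brightness filter, quantile normalization, median centring, no variance trend, resident arrays alone, runs of sample numbers and leaving out each resident array. Fixed for naming were Mki67, Top2a, Pcna, Ccnd1 and Mcm2 to Mcm7, then the 5 members with the smallest p in each direction in Il10ra_mKO, the 4 with the largest difference in each direction in Il10_KO, 4 other cell cycle genes in each direction, the brightest gene of each marker list and 4 promoters. The members and lists were chosen with earlier results of these data known. Of the 84 listed marker genes 79 were measured. Brightest genes of the marker lists not described in the results were C1qb (macrophage, log2 12.80 to 13.36), Ccr2 (monocyte, 9.75 to 11.33), Cd4 (T cell and ILC, 10.36 to 11.19), Dcn (fibroblast, 9.26 to 11.39) and Pecam1 (endothelium, 7.17 to 8.51).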

Additional observations from a re-analysis of the deposited data

Results flagged for a closer look

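The limma test of the difference between both mutant effects passed for 5 of the 141 other cell cycle genes (4.7% of all genes tested) and for 0 of the 46 members. The difference of effects on the log2 scale was 0.302 for Timeless (adjusted p = 0.0120), -0.385 for Kif14 (adjusted p = 0.0139), -0.0956 for Cdkn2a (adjusted p = 0.0335), 0.364 for Aspm (adjusted p = 0.0426) and 0.286 for Kif18a (adjusted p = 0.0476). One side of this test is a single Il10_KO array against a single WT_CX3CR1hi array, with the spread taken from resident arrays, so a small p here is no replicated evidence of a difference. All 5 lay under log2 6.2 in every array. In Timeless and Kif14 the 3 WT_resident arrays held equal values, and in Timeless, Kif14, Cdkn2a and Kif18a the Il10ra_mKO difference was between -0.01 and 0.00. Over 10 or 11 alternatives Timeless kept its call in 5, Kif14 and Cdkn2a in 4, and Aspm and Kif18a in 1, with the same direction in each of them.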

How the results depend on the processing

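No paired analysis was possible because the labels carry no replicate numbers, and those used here only name arrays; runs of neighbouring sample numbers served as a block instead. The Il10ra_mKO mitosis median (-0.05) was -0.26 to 0.11 when 1 array was left out, 0.11 within sample numbers 54 to 56 and -0.29 within 67 to 68; the G1/S control median (-0.05) was -0.098 to 0.0511, and 0.05 within 54 to 56. The replication median (-0.19) was -0.25 to -0.065 without 1 array. In Il10_KO the Top2a difference (-0.38) was 0.0373 and the mitosis median (-0.38) was -0.32 with the mean of a gene's rows and -0.28 with quantile normalization. Leaving out 1 array gave 0 to 4 members with an adjusted p under 0.05 and 0 to 12 with an unadjusted one, and of the other genes 0 to 2 and 9 to 35. Unadjusted, 1 member passed with quantile normalization (Ect2) and 2 with median centring (Ect2 and Bub1b). Members wholly above the WT_resident range (2, beside 8.92% of all genes) numbered 5 with quantile normalization, 7 with median centring and 2 to 17 without 1 array. Those below (1, beside 8.5% of all genes) numbered 6, 0 and 1 to 28. The 17 came with array 1 left alone (21.4% of all genes above) and the 28 with array 2 left alone (23.7% below). The cause was not tested, except that 1 mutant array left alone lies outside a range more easily than a pair. Where no share of all genes is given here, a count describes the setting and not the members. Over all genes, limma called 1 gene, against 12 with the brightness filter, 114 with quantile normalization, 146 with median centring, 4 without the variance trend, 0 with runs of sample numbers as a block, and 266 and 267 without Il10ra_mKO array 1 or 2. With median centring 1484 genes were higher and 803 lower at an unadjusted p under 0.05, against 810 and 770. The difference of both mutant effects was called for 937 genes, against 8 with quantile normalization, 17 with median centring, 1 with the brightness filter, 30 without the variance trend, 0 with the block and 0 to 2200 without 1 array. Equal deposited values in the resident arrays limit what these tests show, and the single CX3CR1hi arrays give no spread.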
